A study of Bos taurus with 45 samples.

Results

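The core genes described here are the 104 gene identifiers that had 5 or more counts in every one of the 40 bovine embryo libraries with a total of at least 1000000 counts. They were chosen by that minimum from a table of 24616 identifiers, of which 12994 had a count in any of the 45 libraries. In all, 120 identifiers met the minimum, and the rule left out 15 of them that lie in 1 run of consecutive identifiers and 1 of 2 other identifiers that it names. The 40 libraries are called deep and the other 5 shallow, and the shallow libraries had no part in the choice. The files do not pair the identifiers with gene names, so what each core gene encodes is not given and the levels of lineage markers were not checked.

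Each library came from 1 part of a manually bisected bovine blastocyst produced in vitro with X-sorted sperm, so all embryos share the sperm type, the culture system and harvest on day 7. The part sequenced was the smaller or less intact one where the cut was uneven, and a recipient cow received the remaining part. From day 5 of culture the embryos received 10 ng/ml of recombinant bovine CSF2, a cytokine given in serum-free medium, or vehicle. Pregnancy was checked on day 30 and again on day 60. Of the 45 embryos, 29 gave no pregnancy at day 30 and are called not established, with 14 on CSF2 and 15 on vehicle. Another 6 gave a pregnancy that was gone at day 60 and are called lost, with 1 on CSF2 and 5 on vehicle. The remaining 10 gave a pregnancy present at both checks and are called maintained, with 5 on CSF2 and 5 on vehicle. The deep libraries comprised 26 not established, 5 lost and 9 maintained embryos, or 18 on CSF2 and 22 on vehicle, and the replicate is the embryo.

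A blastocyst is a hollow embryo with an outer layer, the trophectoderm, that goes on to form much of the placenta, and an inner cell mass from which the fetus derives. Transcripts that almost every cell needs, such as those for ribosomal proteins, translation factors and the cytoskeleton, are commonly among the most abundant in an embryo. Genes of that kind are often used as a reference against which other genes are read, which makes their own spread from embryo to embryo of interest. In bulk samples like these, fewer cells of a type and less RNA per cell cannot be told apart.

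The deep libraries held between 3906252 and 10326829 counts and had 5 or more counts for between 1095 and 6137 genes. The shallow libraries held between 137808 and 853817 counts and had 5 or more counts for between 50 and 502 genes. No 2 columns of the table were identical, and the highest correlation between 2 libraries was 0.68.

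The minimum of 5 counts stands close to many genes. Under a minimum of 10 counts, 94 of the 104 core genes would be kept. Just inside the minimum were ENSBTAG00000043299, with a lowest count of 5 in the embryo maintained 4 and a median level of 9.14 CPM, the counts per 1000000 counts of the library, and ENSBTAG00000009615, with a lowest count of 6 in not established 5 and a median of 549.5 CPM. Just outside were ENSBTAG00000002038, with a lowest count of 4 in not established 24 and a median of 534.4 CPM, and ENSBTAG00000021580, with 4 in not established 25 and a median of 954.0 CPM. A further 92 genes met the minimum in 39 of the 40 libraries, and 42 of them failed in not established 25, the deep library with the fewest genes read. Without that library the same rule gives 146 members in place of 104. Of the 92 genes, 49 stood at 0 counts in the library where they failed, while their median level was 502 CPM.

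Among the 104 identifiers, 11 fell into 2 sets whose members carried nearly the same counts within each library. They were singled out after their values were seen. The first set holds ENSBTAG00000045710, ENSBTAG00000046351, ENSBTAG00000047046 and ENSBTAG00000047154. The second holds ENSBTAG00000045747, ENSBTAG00000045825, ENSBTAG00000045952, ENSBTAG00000046882, ENSBTAG00000047401, ENSBTAG00000048148 and ENSBTAG00000048255. Over the 40 deep libraries Spearman's rho between 2 members was between 0.995 and 0.996 within the set of 4 and between 0.977 and 0.997 within the set of 7. The highest rho with any core gene outside its set was 0.57 for either set. Of the 10726 and 10723 other genes that were compared with the set of 4 and the set of 7, 0 passed a rho of 0.9.

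The counts within each set were split evenly. Each identifier held between 24.9% and 25.1% of the counts of the set of 4, and between 14.2% and 14.4% of the counts of the set of 7. In a deep library the highest identifier had a median of 1.03 times the count of the lowest in the set of 4 and 1.12 times in the set of 7. A chi-square test against an even split, summed over the 40 libraries, gave 1.11 per degree of freedom for the set of 4 (p = 0.201) and 1.12 for the set of 7 (p = 0.098). Summed over libraries, the identifiers of each set thus differed by about the sampling noise of the counts. In single deep libraries the chi-square p was under 0.05 in 2 of 40 for the set of 4 and in 5 for the set of 7. The lowest was 0.000606, for the set of 7 in not established 16. In the 5 shallow libraries, which the choice of members did not use, the same test gave 1.58 per degree of freedom for the set of 4 (p = 0.0705) and 0.79 for the set of 7 (p = 0.784). Whether the identifiers of a set were assigned the same reads was not tested, and the value of any 1 of the 11 is uncertain as that of a single gene. Counted this way, the 104 identifiers carry 95 separate signals, namely 93 single identifiers and 2 sets.

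**Figure D1:**
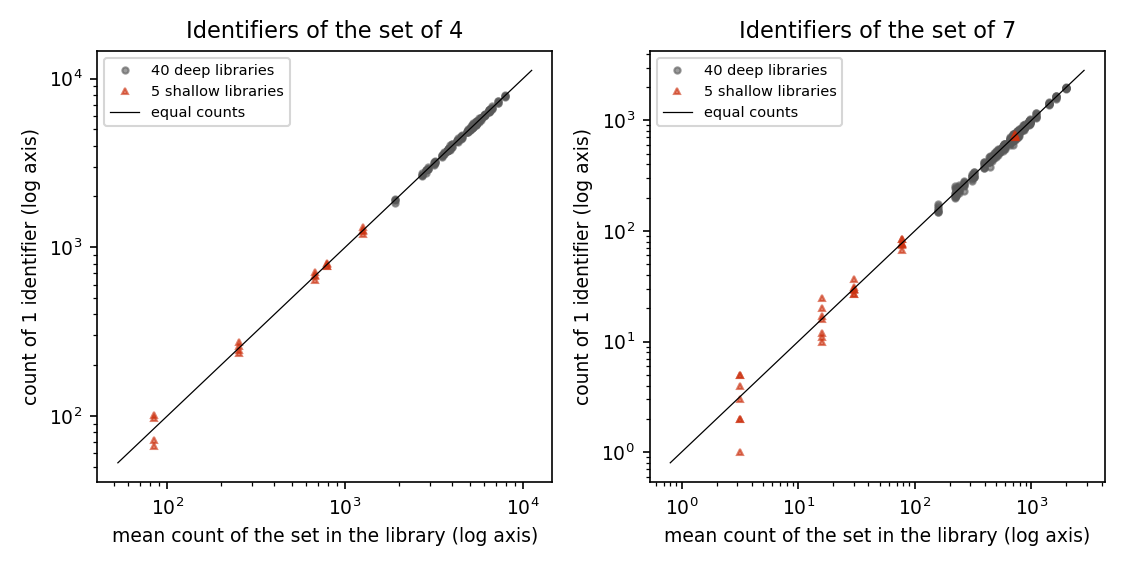
Count of each identifier (vertical, log axis) against the mean count of its set in the same library (horizontal, log axis), with the set of 4 on the left and the set of 7 on the right. Grey points are the 40 deep libraries, red triangles the 5 shallow ones and the line marks equal counts. The points lie along the line in deep and shallow libraries alike, with more scatter where counts are low.

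The 2 sets differed in level, and each varied between embryos. Summed over its identifiers, the set of 4 ranged from 1044 to 5231 CPM with a median of 3487, and the set of 7 from 273 to 2756 CPM with a median of 760. In the 5 deep lost embryos the set of 7 summed to 932, 1055, 875, 803 and 1592 CPM. In the 9 maintained embryos it ranged from 273 to 1536 CPM with a median of 600, and in the 26 not established embryos from 281 to 2756 CPM with a median of 760. The ranges of the 3 outcome groups overlapped.

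On the log2(CPM + 1) scale the set of 7 was 0.89 lower in maintained than in lost embryos, with an unadjusted exact permutation p of 0.043 and an adjusted p of 0.328 over the 8 tests of both sets. The set of 4 averaged 4043 ± 622 CPM (SD, n = 5) in lost, 3075 ± 1333 (n = 9) in maintained and 3358 ± 1003 (n = 26) in not established embryos. By culture treatment it averaged 3639 ± 1211 CPM (n = 18) with CSF2 and 3168 ± 895 (n = 22) with vehicle, a log2 difference of 0.15 with a permutation p of 0.398. None of the 8 differences passed the adjustment, and the lowest adjusted p was 0.328 by these permutation tests.

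Core genes spanned close to 3 orders of magnitude in median level. The median over the 104 identifiers was 860 CPM, with quartiles of 533 and 1261 CPM. A single core gene had a median under 100 CPM, 63 lay between 100 and 1000 CPM and 40 were at or above 1000 CPM. Since gene lengths were not used here, CPM states how many reads an identifier took in a library and does not rank transcripts per cell. The 5 highest held 20.3% of all core gene counts in the deep libraries and the 10 highest held 34.2%.

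The highest core gene was also the steadiest. ENSBTAG00000014534 had a median of 7315 CPM and ranged from 4956 CPM to 11481 CPM, with a coefficient of variation (CV, the SD over the mean) of 20.4%. In the 5 lost embryos it stood at 8632, 7662, 7195, 6432 and 9402 CPM. It ranged from 4956 to 9286 CPM with a median of 7736 in the 9 maintained embryos, and from 5274 to 11481 CPM with a median of 7157 in the 26 not established embryos. The ranges of the 3 groups overlapped. ENSBTAG00000013468 had the next smallest CV, 26.1%, with a median of 4327 CPM and a range from 2218 to 7127 CPM.

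A high level did not always go with a narrow range. ENSBTAG00000008300, the gene with the next highest median, 5702 CPM, ranged from 327 to 13352 CPM with a CV of 56.6%. Its 5 lost embryos stood at 956, 3517, 7422, 327 and 9079 CPM, so that lost embryos included the lowest library and also values above the overall median. At the other end, ENSBTAG00000016401 had the largest CV, 107%, with a median of 455 CPM, 4.83 CPM in its lowest library and 3134 CPM in not established 25. ENSBTAG00000013930 followed with a CV of 103%, and its highest value, 1745 CPM, was in the same library. The lowest median was that of ENSBTAG00000043299, 9.14 CPM, with a range from 0.997 to 50.3 CPM. The next lowest median, 102 CPM, was that of ENSBTAG00000046882 of the set of 7.

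**Figure D2:**
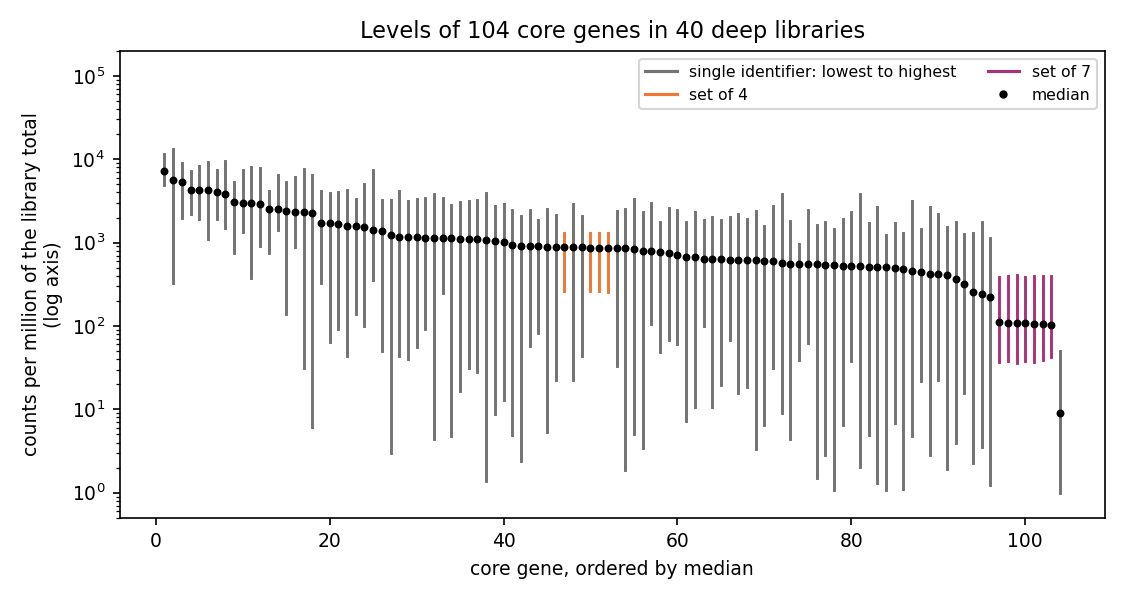
Level of each of the 104 core genes in the 40 deep libraries, ordered by median; the vertical axis is CPM on a log scale, each line runs from the lowest to the highest library and each dot is the median. Lines reach downward further than upward for most single identifiers, while the sets of 4 and 7, coloured, have short lines for their level.

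Spread between libraries, 1 per embryo, was wide for most core genes. The median CV was 59.4%, and 14 identifiers had a CV under 40%, 79 between 40% and 80% and 11 at or above 80%. Counting error alone gives a CV of 1.43% at the median count of a core gene, 4896.5. Since each embryo gave 1 library, differences between embryos and between library preparations cannot be told apart. The ratio of the highest to the lowest library had a median of 74.5 and ran from 2.32 to 2851; it was under 10 for 19 identifiers and at or above 1000 for 10. ENSBTAG00000011382 had the largest ratio, with 1.39 CPM in lost 4 and 3962 CPM in maintained 6. Across the 104 identifiers the SD of log2(CPM + 1) had a Spearman's rho of -0.45 with the median level, and -0.68 across the 93 single identifiers. These are descriptions across genes, which are not independent replicates and share libraries and depth.

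Spread differed little by culture treatment. The median over core genes of the SD of log2(CPM + 1) was 1.212 among CSF2 embryos and 1.197 among vehicle embryos, and 58 of the 104 identifiers had the larger SD with CSF2. By outcome the median SD was 1.18 in not established, 0.91 in lost and 0.89 in maintained embryos. The SD was larger in maintained than in not established embryos for 47 of 104 identifiers and larger in lost than in not established embryos for 30. Group sizes of 26, 5 and 9 differ and the differences in spread were not tested. Outcome and treatment together accounted for a median of 7.79% of the variance of a core gene, against 6.19% over all genes tested and 7.69% that a model of this size gives without any effect.

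Low values of core genes were spread unevenly over the deep libraries. Of the 4160 values, 189 (4.54%) lay under 10% of the gene's own median, and 92 lay above 3 times that median. For 33 identifiers no library fell under 10% of the median, for 60 between 1 and 4 libraries did, and for 11 it was 5 or more, up to 8. In 8 libraries no core gene was that low. The 5 libraries with the most low core genes held 79 of the 189 low values (41.8%), with 22 in not established 25, 18 in maintained 10, 15 in not established 19, 13 in lost 4 and 11 in not established 24. These 5 came from all 3 outcome groups and from both treatments.

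Libraries with low core genes were also those in which fewer genes were read. Over the 40 deep libraries the number of core genes under 10% of their median had a Pearson's r of -0.83 and a Spearman's rho of -0.87 with how many genes reached 5 counts. The permutation p was 1e-05 for both, the smallest that 100000 resamples can give, and 2e-05 after adjustment over 4 relations. Without the 2 libraries farthest from the median number of genes r was -0.83, and it was -0.84 within the 26 not established, -0.82 within the 18 CSF2 and -0.86 within the 22 vehicle embryos. With the log2 library total the number of low core genes had r = -0.41 (permutation p = 0.00857, adjusted p = 0.0114) and rho = -0.38 (permutation p = 0.0146, adjusted p = 0.0195). Without the 2 libraries farthest from the median total r was -0.39, and it was -0.50 within not established, -0.26 within CSF2 and -0.64 within vehicle embryos. The core genes are themselves among the genes counted, and each always passes the minimum of 5 counts.

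**Figure D3:**
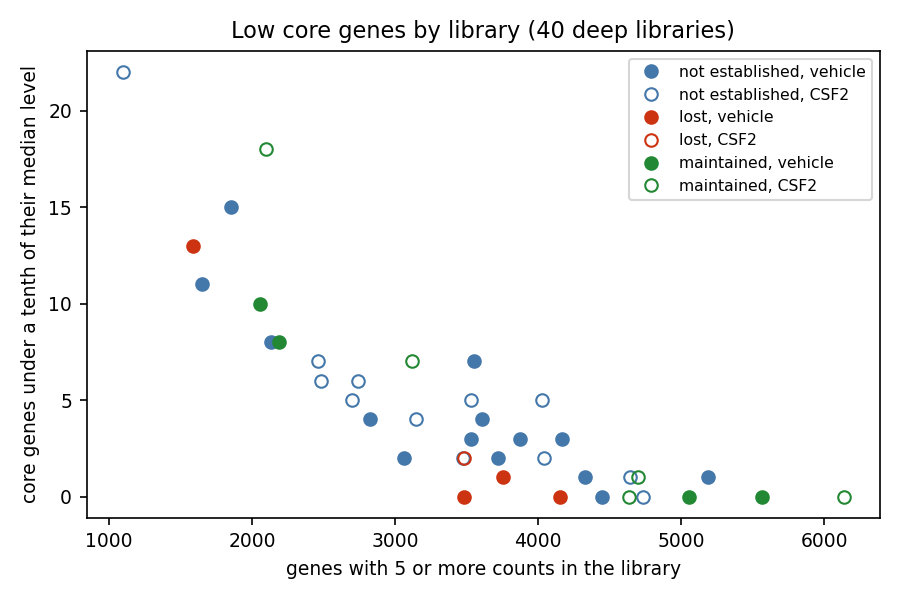
Number of core genes under 10% of their own median (vertical) against how many genes reached 5 counts in the same library (horizontal), one point for each of the 40 deep libraries; colour marks the outcome, filled points are vehicle and open points CSF2. The 22 low core genes of not established 25 stand at 1095 genes read, and libraries of each outcome and treatment fall along the same slope.

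Together the core genes took a narrow share of each deep library. They held between 11.02% and 16.2% of its counts with a median of 13.9%, a 1.47-fold range, while the run of identifiers left out by the rule held between 15.5% and 37.2%, a 2.40-fold range. Across the deep libraries these 2 shares had r = -0.69 and rho = -0.73, each with a permutation p of 1e-05, the smallest possible, and 2e-05 after adjustment over the 4 relations. Without the 2 libraries farthest from the median r was -0.71, and it was -0.58 within not established, -0.88 within CSF2 and -0.57 within vehicle embryos. Both shares are parts of 1 total. The core share had r = 0.12 (permutation p = 0.473) and rho = 0.09 (permutation p = 0.578) with the number of genes read, with r = 0.11 without the 2 farthest libraries and r of -0.07 within not established, -0.04 within CSF2 and 0.24 within vehicle embryos.

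By outcome the core share was 13.5% ± 1.29 (SD, n = 26) in not established, 14.96% ± 1.68 (n = 5) in lost and 14.2% ± 1.08 (n = 9) in maintained embryos. Lost embryos ranged from 12.0% to 16.2% and not established embryos from 11.02% to 15.4%, so the groups overlapped. The difference of 1.44 percentage points between them had a two-sided exact permutation p of 0.0365 and an adjusted p of 0.146 over 4 tests. That test took no account of treatment. The deep lost embryos were 1 on CSF2 and 4 on vehicle, and the not established ones 12 and 14. Maintained embryos were 0.64 points above not established embryos (exact permutation p = 0.194, adjusted p = 0.284) and 0.80 points below lost embryos (exact permutation p = 0.284, adjusted p = 0.284). By treatment the share was 14.1% ± 1.31 (n = 18) with CSF2 and 13.6% ± 1.39 (n = 22) with vehicle, a difference of 0.52 points (permutation p = 0.23, adjusted p = 0.284). With the excluded run taken out of the total, CSF2 embryos were below vehicle embryos, by -0.13 points.

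Group medians of single core genes had a similar order in the groups. Across the 104 identifiers the medians of maintained and not established embryos had a Spearman's rho of 0.92, those of lost and not established embryos 0.87, those of maintained and lost embryos 0.86, and those of CSF2 and vehicle embryos 0.96. The ratio of medians was within 1.5-fold for 89 identifiers between maintained and not established, for 68 between lost and not established, for 65 between maintained and lost, and for 98 between CSF2 and vehicle. Beyond 2-fold lay 2, 13, 11 and 1 identifiers in the same order. These counts take each identifier of the sets singly, and the share over all genes was not computed. Summed, the set of 4 had medians of 2635 CPM in maintained and 4394 in lost embryos, and the set of 7 had 600 and 932. The comparisons with more identifiers beyond 2-fold were those with the 5 lost embryos.

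The first question was whether core genes differed between embryos whose pregnancy was maintained and those that gave none. By edgeR's quasi-likelihood test with Benjamini-Hochberg adjustment over 7476 genes, 0 of 104 core genes were called at an adjusted p of 0.05, beside 0.134% of all genes tested, and the lowest adjusted p of a core gene was 0.84. At an unadjusted p under 0.05 the count was 0 of 104, beside 8.75% of all genes. The fit shares its estimate of spread between genes, as given below. The count therefore does not show that core genes changed less. DESeq2, limma voom and the permutation test per gene also called 0 core genes, beside 2.01%, 0.0% and 0.0% of all genes. Fitted changes were positive for 54 and negative for 50, with a median log2 change of 0.02 beside -0.01 over all genes and a median standard error of 0.67.

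The smallest p among positive changes was that of ENSBTAG00000004555. It ranged from 1410 to 7970 CPM with a median of 3240 in the 9 maintained embryos and from 376 to 5693 CPM with a median of 2917 in the 26 not established embryos. The groups overlapped, and the log2 change was 0.62 with a standard error of 0.39 (edgeR adjusted p = 0.84). ENSBTAG00000011382 followed with a log2 change of 0.79 (SE 0.57, edgeR adjusted p = 0.995). Among negative changes ENSBTAG00000002528 ranged from 358 to 1738 CPM with a median of 1172 in maintained and from 418 to 7467 CPM with a median of 1730 in not established embryos, so that the lower part of both ranges coincided. Its log2 change was -0.80 (SE 0.55, edgeR adjusted p = 0.933), with an unadjusted exact permutation p of 0.027 that became 0.738 over all genes. ENSBTAG00000019125 had a log2 change of -0.63 (SE 0.65, edgeR adjusted p = 0.999).

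Lost embryos were then compared with not established ones. By edgeR's test 0 of 104 core genes were called, beside 0.0401% of all genes, with 0 at an unadjusted p under 0.05 beside 17.4% of all genes and a lowest adjusted p of 0.44. DESeq2, limma voom and the permutation test also called 0, beside 8.59%, 0.134% and 0.0% of all genes. Changes were positive for 64 and negative for 40, with a median log2 change of 0.20 in core genes and -0.49 over all genes. With library totals in place of TMM scaling these medians were 0.24 and -0.46, and with DESeq2's size factors 0.15 and -0.59. Summed to 1 row each, the sets of 4 and 7 had log2 changes of 0.30 and 0.23, so their identifiers add to the positive count as only 2 signals. Whether core genes differ from all genes in this comparison was not tested.

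ENSBTAG00000020908 had the smallest p among positive changes. It stood at 2492, 4258, 2600, 1965 and 7694 CPM in the 5 lost embryos and ranged from 31.7 to 5952 CPM with a median of 1690 in the 26 not established embryos. All 5 lost embryos lay above the not established median, within or above that group's range. The log2 change was 0.94 with a standard error of 0.56 (edgeR adjusted p = 0.44). ENSBTAG00000016024 had the smallest p among negative changes and stood at 235, 148, 118, 534 and 113 CPM in lost embryos, against a range from 1.301 to 2652 CPM with a median of 521 in not established embryos. Lost embryos thus lay inside the wide range of the other group, and the log2 change was -1.58 (SE 1.10, edgeR adjusted p = 0.569). ENSBTAG00000004555 with 0.64 (SE 0.49) and ENSBTAG00000006270 with -0.53 (SE 0.46) came next by p in each direction, with edgeR adjusted p-values of 0.638 and 0.733.

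Maintained and lost embryos differ in what followed the first pregnancy check. In this comparison edgeR's test called 0 of 104 core genes, beside 0.0% of all genes, with 0 at an unadjusted p under 0.05 beside 16.6% of all genes. DESeq2, limma voom and the permutation test called 0 core genes as well, beside 8.07%, 0.0134% and 0.0% of all genes. Changes were positive for 44 and negative for 60, with a median log2 change of -0.05 in core genes and 0.53 over all genes. Summed to 1 row each, the sets of 4 and 7 had log2 changes of -0.46 and -0.65, and the negative count takes their identifiers singly. The lost embryos are the same 5 libraries as in the preceding comparison. ENSBTAG00000016024 had the smallest p among positive changes, with a change of 1.82 on the log2 scale (SE 1.21, edgeR adjusted p = 0.531), and ranged in the 9 maintained embryos from 1.87 to 1265 CPM with a median of 546. ENSBTAG00000021455 had the smallest p among negative changes, with a log2 change of -1.33 (SE 1.01, edgeR adjusted p = 0.635); it stood at 1888, 1089, 778, 499 and 1082 CPM in lost embryos and ranged from 3.39 to 1781 CPM with a median of 458 in maintained embryos. Both pairs of groups overlapped. The 3.39 CPM was in maintained 4, and the next lowest maintained embryo stood at 228 CPM. Next by p in each direction were ENSBTAG00000008300 with 0.56 (SE 0.50) and ENSBTAG00000002068 with -1.01 (SE 1.02).

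Culture with CSF2 was compared with vehicle over 18 and 22 embryos, the largest comparison here. By edgeR's test 0 of 104 core genes were called, beside 0.669% of all genes, with 0 at an unadjusted p under 0.05 beside 9.62% of all genes and a lowest adjusted p of 0.658. Limma voom and the permutation test called 0, beside 0.0% of all genes for each, and DESeq2 called 1, ENSBTAG00000021455, beside 2.8% of all genes. Changes were positive for 56 and negative for 48, with a median log2 change of 0.05 beside 0.01 over all genes and a median standard error of 0.56.

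ENSBTAG00000021455 ranged from 228 to 2425 CPM with a median of 813 in CSF2 embryos and from 3.39 to 1089 CPM with a median of 479 in vehicle embryos. The upper values were in CSF2 embryos and the ranges overlapped between 228 and 1089 CPM. The 3.39 CPM was in maintained 4, a vehicle embryo with 10 low core genes, and the next lowest vehicle value was 184 CPM. The log2 change was 1.02 with a standard error of 0.59 by edgeR (adjusted p = 0.658), and 1.19 by DESeq2 (adjusted p = 0.0318). The unadjusted permutation p was 0.0103 and the adjusted one 0.998. ENSBTAG00000047000 had a log2 change of 0.87 (SE 0.58, edgeR adjusted p = 0.811).

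Among negative changes ENSBTAG00000016024 had a log2 change of -0.91 (SE 0.65, edgeR adjusted p = 0.876) and ENSBTAG00000039374 one of -0.69 (SE 0.65, edgeR adjusted p = 1). ENSBTAG00000039374 ranged from 1.09 to 904 CPM with a median of 341 in CSF2 embryos and from 234 to 1440 CPM with a median of 629 in vehicle embryos. Its lowest value was in maintained 10, a CSF2 embryo with 18 low core genes. On the log2(CPM + 1) scale its mean was 7.81 with CSF2 and 9.21 with vehicle, a difference of -1.41 with an unadjusted permutation p of 0.00156 that became 0.998 over all genes. Of the 104 core genes, 3 had an unadjusted permutation p under 0.05 in this comparison (2.88%), beside 4.51% of all genes.

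The other comparisons gave similar counts by permutation. Unadjusted p-values under 0.05 were found for 3 core genes (2.88%) between maintained and not established, beside 6.3% of all genes, and for 5 (4.81%) between lost and not established, beside 4.37%. Between maintained and lost there were 7 (6.73%), beside 3.3% of all genes, and 5 of these 7 were identifiers of the set of 7, which carry 1 signal. After adjustment the permutation test called 0 core genes and 0.0% of all genes in each of the 4 comparisons.

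**Figure D4:**
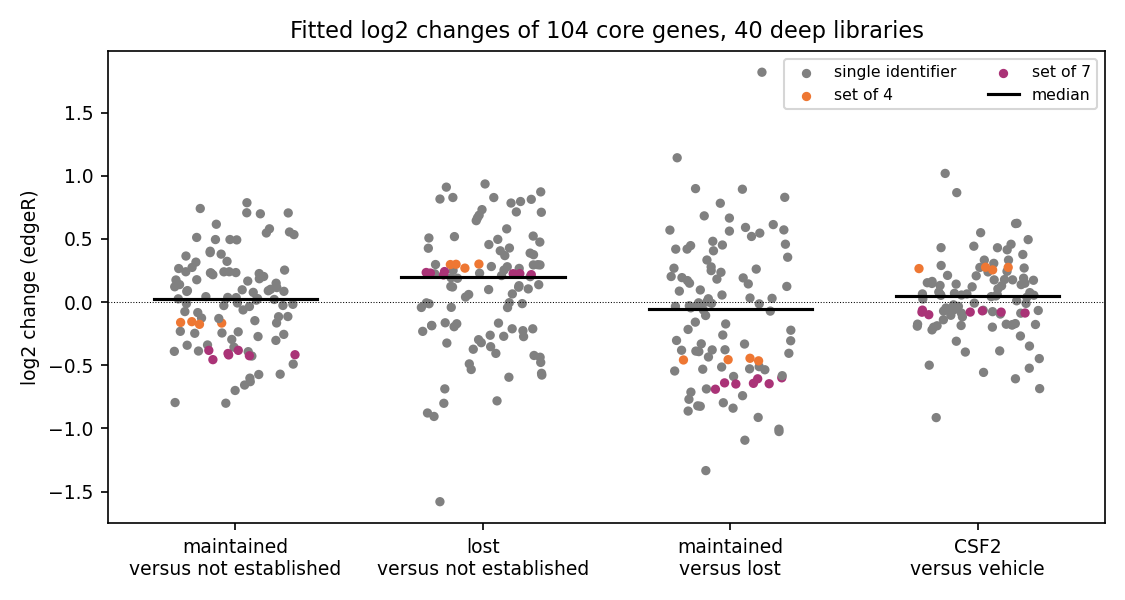
Fitted log2 changes by edgeR of the 104 core genes in each of the 4 comparisons over the 40 deep libraries; each dot is 1 identifier, the bar is the median, and the sets of 4 and 7 are coloured. The medians lie at 0.02, 0.20, -0.05 and 0.05 from left to right, and the identifiers of a set sit together.

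The precision of these fits sets what they could show. The edgeR fit shares its estimate of spread between genes. Before the test step, the biological coefficient of variation estimated per core gene, as a ratio of SD to mean, had a median of 1.47. The levels of the same genes had a median CV of 61.2% after scaling. For the other 7372 genes tested the medians were a ratio of 3.85 and a CV of 240%. Over the 4 comparisons 0 of 416 tests of core genes had an unadjusted p under 0.05. For core genes that median ratio was above the median CV of their levels. The test itself does not use the ratio per gene. It scales a dispersion shared between genes by a moderated factor, the quasi-dispersion, with a median of 0.534 for core genes. For 102 core genes that factor was set by the shared estimate alone. Whether small p-values were harder to reach for core genes was not tested. Counts of 0 beside the share over all genes therefore do not show that core genes changed less. The permutation test per gene uses each gene's own spread and is given beside the fit for that reason.

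Whether the effect of CSF2 differed between maintained and not established embryos was tested as an interaction over 5010 genes. By edgeR's test 0 of 104 core genes were called, beside 0.0% of all genes, and 0 had an unadjusted p under 0.05 beside 5.35% of all genes. The smallest p-values in each direction were those of ENSBTAG00000016748, with an estimate of 2.06 on the log2 scale (SE 1.38), and ENSBTAG00000001553, with -2.05 (SE 1.16), each with an edgeR adjusted p of 1. By p, ENSBTAG00000002068 with 1.31 (SE 1.34) and ENSBTAG00000014127 with -1.69 (SE 1.09) followed.

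Apart from the 2 sets, most pairs of core genes showed little covariation. Over the 4465 pairs of the 95 signals the median Spearman's rho of log2(CPM + 1) in the 40 deep libraries was 0.03, with quartiles of -0.10 and 0.15. It passed 0.5 in 27 pairs (0.605%) and lay under -0.5 in 10 pairs (0.224%). All pairs share library and depth, and levels in CPM are parts of 1 total. Expressed relative to the sum of the core genes, 16 pairs passed 0.5 and 12 lay under -0.5. In the smaller groups more pairs passed 0.5, with 70 among the 26 not established, 178 among the 18 CSF2 and 113 among the 22 vehicle embryos, while the medians were 0.03, 0.03 and 0.04.

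The closest pair of single identifiers was ENSBTAG00000002129 and ENSBTAG00000021678. Spearman's rho was 0.70 (permutation p = 1e-05, adjusted over all pairs 0.0149) and Pearson's r was 0.59 (permutation p = 0.00209, adjusted p = 0.17), with r = 0.42 without the 2 farthest libraries. The rank correlation was 0.73 within not established, 0.68 within CSF2 and 0.71 within vehicle embryos. ENSBTAG00000018800 and ENSBTAG00000019494 followed with rho = 0.68 (permutation p = 1e-05, adjusted p = 0.0149) and r = 0.45 (permutation p = 0.00551, adjusted p = 0.222), or r = 0.49 without the 2 farthest libraries. Both pairs held in rank and were weaker on the linear measure.

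The most opposed pair was ENSBTAG00000008300 and ENSBTAG00000010347, both among the 10 highest core genes. The rank correlation was -0.62 (permutation p = 1e-05, adjusted p = 0.0149) and r was -0.64 (permutation p = 1e-05, adjusted p = 0.0223), with r = -0.63 without the 2 farthest libraries. The rank correlation was -0.51 within not established, -0.54 within CSF2 and -0.69 within vehicle embryos, -0.47 after TMM scaling and -0.64 relative to the sum of the core genes. ENSBTAG00000000836 was next in rank opposition to ENSBTAG00000008300, with rho = -0.57 (permutation p = 0.00021, adjusted p = 0.0774) and r = -0.50 (permutation p = 0.0009, adjusted p = 0.138), or r = -0.38 without the 2 farthest libraries. The pairs were picked for their size, so these p-values are a description. In all, 6 positive pairs and 1 negative pair had an adjusted p under 0.05 by Spearman's rho.

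The 5 shallow libraries show how the core genes fared where few genes were read. Of the 104 core genes, 41 had 5 or more counts in not established 8, 17 in not established 27, 22 in not established 29, 12 in maintained 8 and 20 in lost 5. That is 39.4%, 16.3%, 21.2%, 11.5% and 19.2% of core genes, against 1.88%, 0.184%, 0.465%, 0.155% and 0.587% of all other identifiers in the table. The other identifiers include those without a count in any library, since 12994 of the 24616 had one, which widens the contrast. The choice of members by high detection in deep libraries favours this order. Still, 52 core genes reached 5 counts in 0 of the 5 shallow libraries and 25 in 1 of them. The 6 identifiers that did so in all 5 belong to the 2 sets, and ENSBTAG00000045661 was the single identifier that did so in 4.

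The share of core genes in the shallow libraries was low, between 1.22% and 3.92% of counts, and in 2 of them the sets made up most of it. In maintained 8 the set of 4 summed to 2720 counts, or 19738 CPM, and made up 95.5% of all core gene counts. In lost 5 the set of 7 summed to 5053 counts, or 7352 CPM, and made up 58.6%. In not established 29 the set of 4 made up 27.5%. The deep libraries had a median of 2.44% in the set of 4 and 0.555% in the set of 7. The 2 core genes that led in the deep libraries were low in all 5 shallow libraries. In the order not established 8, 27 and 29, maintained 8 and lost 5, ENSBTAG00000014534 stood at 7.03, 15.1, 0, 50.8 and 11.6 CPM, and ENSBTAG00000008300 at 2.34, 26.5, 0, 0 and 13.1 CPM.

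**Figure D5:**
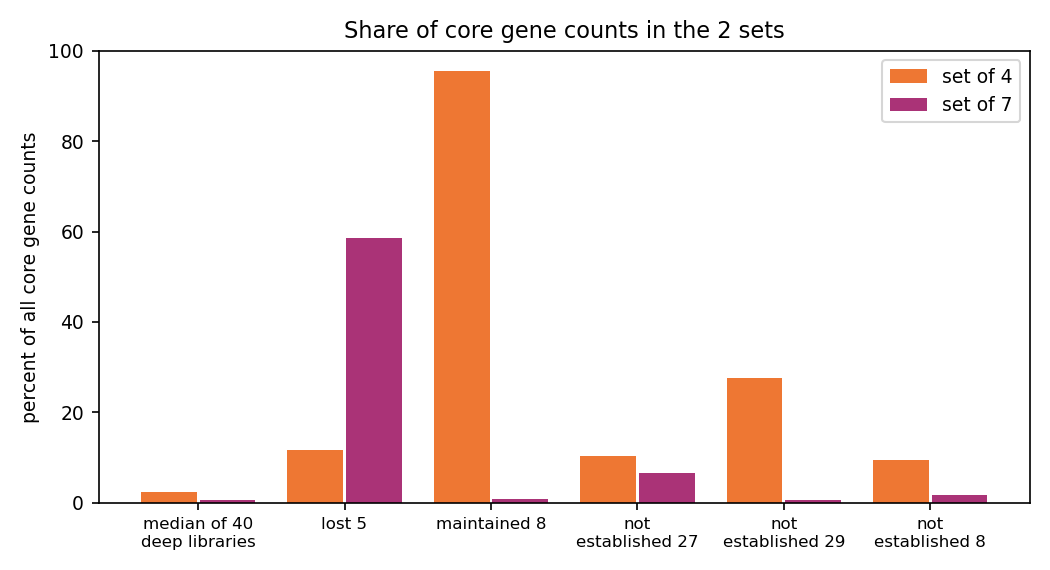
Percent of all core gene counts held by the set of 4 and by the set of 7 (vertical axis from 0) in each of the 5 shallow libraries, beside the median of the 40 deep libraries at the left. The bar for the set of 4 reaches 95.5% in maintained 8 and that for the set of 7 reaches 58.6% in lost 5.

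Calls among core genes changed when the shallow libraries were added to the fit. In the fit of all 45 libraries the TMM factors of the shallow ones were 0.0267 to 0.493, and its log2 changes include that scaling. In CPM, the set of 7 summed to 7352 in lost 5 and to at most 1592 in the deep lost embryos. How much of a fitted change came from the scaling was not tested. With all 45 libraries edgeR called 7 core genes between lost and not established, beside 0.868% of all genes, and the 7 were the identifiers of the set of 7, higher in lost embryos by 5.77 to 5.91 on the log2 scale. Between maintained and lost it called 8, beside 0.463%, the same 7 identifiers and ENSBTAG00000045661, each lower in maintained embryos, the last by -5.99 (edgeR adjusted p = 0.0138). Without lost 5 the counts were 0, beside 0.267% of all genes, and 0, beside 0.0133%. With each set summed to 1 row and all 45 libraries, 1 core signal was called between lost and not established, the set of 7 with a log2 change of 4.48 (edgeR adjusted p = 0.0202), beside 0.681% of all genes. Between maintained and lost 0 were called, beside 0.159%, and the set of 7 had an edgeR adjusted p of 0.0821. Between maintained and not established, 0 core genes were called with all 45 libraries (0.0579% of all genes), with the sets summed (0.058%) and without lost 5 (0.347%). Between CSF2 and vehicle, 0 were called with all 45 libraries (0.767%) and with the sets summed (0.667%), and 1 was called without lost 5 (1.64%), ENSBTAG00000045661. The interaction over all 45 libraries called 0 core genes, beside 0.0652% of all genes.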

How the data were processed

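Each of the 45 demi-blastocysts gave 1 RNA sample (RNeasy Micro Kit) and 1 library (NuGEN Ovation SoLo, with custom depletion for cattle), per the labels' protocols. The deposited values are raw counts of reads for each Ensembl identifier in a single table. The submitters' processing notes name UMD3.1, bosTau8 and edgeR. Not given in the sources used here were the aligner, the counting program, its treatment of strand and of reads that fit several genes, and any removal of duplicate reads. Of 24616 identifiers, 0 matched the supplied bovine gene table, so gene lists, lineage markers and sequences were not used. Columns were matched to samples by title, and groups were taken from the labels of pregnancy status and treatment.

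CPM are counts per 1000000 counts of the library, and log2 values used a pseudocount of 1. The 40 libraries of at least 1000000 counts entered 1 fit in edgeR 4.0.16 (R 4.3.3), with filterByExpr, TMM scaling (factors 0.833 to 1.26), robust quasi-likelihood tests, outcome and treatment as terms, and Benjamini-Hochberg adjustment over all genes tested at 0.05. Two-sided permutation tests of shares, sets and single genes were exact for groups of fewer than 10 libraries and otherwise used 100000 resamples (Python 3.11.15, scipy 1.17.1, numpy 2.4.6, pandas 2.3.3). Unlike the edgeR fit, they compared outcomes without a term for treatment, and treatments without a term for outcome. Identifiers with a Spearman's rho over 0.9 were joined into sets. Chi-square values cover counting error only, and PCR reads are not independent molecules. The tests were checked on simulated data. The members, the sets and the lists were chosen with earlier results of these data known. Named are the 2 identifiers with the smallest p in each direction of a comparison, the 2 highest and lowest in level and in CV, the 2 closest and most opposed pairs, and 2 on each side of the minimum; the 11 identifiers of the sets and ENSBTAG00000045661 were named after their values were seen. Alternatives were DESeq2 1.42.0, limma 3.58.1 voom, other scalings and filters, other sets of libraries, leaving out single libraries and a replicate block.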

Additional observations from a re-analysis of the deposited data

Results flagged for a closer look

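In groups of 4 to 10 libraries, 56 group values were checked for a library far from the others, and 9 stood out. Chance marks about 1 in 20 such groups where values are independent and normally distributed. The groups here share libraries and genes, so 9 of 56 cannot be read against that rate.

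Among the 5 deep lost embryos, lost 4 had the lowest share of core gene counts, 12.0%, with the next at 15.3%, and the most core genes under 10% of their median, 13, with the next at 2. Among all 6 lost embryos, lost 5 had the lowest share, 1.25%, and the highest sum of the set of 7, 7352 CPM. Among all 10 maintained embryos, maintained 8 had the lowest share, 2.07%, and the highest sum of the set of 4, 19738 CPM. Among the 9 deep maintained embryos, maintained 3 had the highest sum of the set of 7, 1536 CPM, and the highest level of its member ENSBTAG00000046882, 223 CPM. In the same group maintained 9 had the highest level of ENSBTAG00000021455, 1781 CPM.

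The 5 shallow libraries lie outside the main comparisons and carried counts of both sets. The set of 4 had a lowest sum of 336 counts, in not established 27, and the set of 7 a lowest sum of 22 counts, in maintained 8.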

How the results depend on the processing

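With all 45 libraries, core genes called moved from 0 to 7 between lost and not established, beside 0.868% of all genes. Between maintained and lost they moved to 8, beside 0.463%. The set of 7, which carries 1 signal, made up 7 of the calls in each, and without lost replicate 5 both counts were 0. With the sets also summed, 1 was called between lost and not established, beside 0.681%. Between CSF2 and vehicle DESeq2 called 1, ENSBTAG00000021455 (log2 1.19, adjusted p = 0.0318), beside 2.8% of all genes. The 45 libraries without lost replicate 5 gave 1, ENSBTAG00000045661 (log2 3.61, edgeR adjusted p = 0.00105), beside 1.64%. In the other settings tried, which were other scalings, no filter, an adjusted p of 0.10, voom, permutation, 1 factor, the not established embryos alone and the sets summed in the deep libraries, 0 core genes were called. Leaving out each library in turn gave 0 to 0 core genes called over 160 fits of the 4 comparisons and 35 of the interaction. The sets summed, voom, the permutation test per gene and the fit without lost replicate 5 were chosen after seeing the data.

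Counts over all genes moved more. With no filter on low counts they were 1400, 398, 18 and 2746 in the order maintained and lost against not established, maintained against lost, and CSF2 against vehicle, with DESeq2 150, 642, 603 and 209, and with an adjusted p of 0.10 they were 115, 16, 0 and 104, beside 10, 3, 0 and 50.

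Replicate numbers were compared between maintained and not established embryos after group means were removed. The 9 pairs of equal numbers had correlations of -0.0278 to 0.0298, and 0 maintained embryos correlated best with their own number. Lost embryos were not checked, and whether equal numbers share a batch cannot be told from these correlations. A fit with the replicate block called 0 core genes in each of the 4 comparisons and turned ENSBTAG00000016024 between CSF2 and vehicle to 0.18. The same libraries without the block also gave 0.

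The core share between maintained and lost turned to 0.27 points with all 45 libraries, and that between CSF2 and vehicle to -0.13 points without the excluded run of identifiers. Pairs over 0.5 fell to 16 relative to the sum of the core genes, and pairs under -0.5 to 3 after TMM scaling. The causes were not tested. Only 5 deep lost embryos limit each comparison with that group, and most core genes had under 5 counts in the 5 shallow libraries, too few to compare there.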
